A study of Mus musculus with 16 samples.

Results

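The livers compared here were those of mice without Rassf1a, a tumour suppressor that scaffolds the Hippo kinases and binds microtubules, and those of wild-type mice. The comparison was chosen by label: the 4 arrays labelled Rassf1a-/- without a Sav1 allele lost against the 4 arrays labelled wildtype, 8 of the 16 arrays of the series. It was described over 13152 genes, each read by 1 probe set that names exactly 1 gene. All 16 arrays were hybridised with total RNA from whole liver of strain 129 mice on a whole-transcript expression array. The wild-type livers carry no labelled alteration, and the Rassf1a-/- livers lack both Rassf1a alleles with Sav1 intact. The genotype is given for the animal, and no label limits the loss to the liver. The other 8 arrays, 4 Sav1+/- and 4 Rassf1a-/- Sav1+/-, hold a second comparison with and without Rassf1a, on livers with 1 Sav1 allele lost. The sources used here give neither sex, age, hour of collection nor array batch, nor do they say that each sample came from its own animal. The p-values below therefore measure the spread between samples. In bulk tissue, fewer cells of a type and less RNA per cell cannot be told apart. The title of the series names Tbk1 and beta tubulin transcripts as its liver readouts.

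The liver, like most tissues, runs a circadian clock. The proteins Bmal1 (gene Arntl) and Clock bind E-box sequences and switch on the Per, Cry, Ciart and Nr1d genes, whose products in turn repress Bmal1 and Clock or the Arntl gene. The same activators drive Dbp and Tef, factors that bind D-boxes and carry the rhythm on to enzymes and transporters of liver metabolism, so that activators and repressors peak at opposite phases of the day. Beta tubulins pair with alpha tubulins to build microtubules, and cells keep tubulin transcripts in balance with free tubulin by degrading the transcripts when free subunits accumulate.

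Signals are log2 values as deposited, and a difference is the Rassf1a-/- mean minus the wild-type mean on that scale. Over all genes, 2 wild-type arrays correlated with r of 0.974 to 0.979, 2 Rassf1a-/- arrays with 0.928 to 0.984, and a wild-type with a Rassf1a-/- array with 0.912 to 0.979. By its sex-linked genes 1 array stood apart: Rassf1a-/- replicate 2 had a mean signal of 9.18 over 3 Y-linked genes and of 3.87 for Xist, while the other 7 arrays lay between 2.09 and 4.17 and between 10.34 and 11.47. The list medians given here that it moved by more than 1.5 times are also given without it. Hepatocyte markers were at a mean of 13.30 to 13.44 in wild type and 13.24 to 13.33 in Rassf1a-/- arrays, all 12 tested. Of these 12, 11 had a difference below 0, with a median of -0.09, and 6 were above 0 with arrays centred on their medians. The mean of 14 Kupffer cell and macrophage markers ran from 9.53 to 10.32 in wild-type and from 9.27 to 10.21 in Rassf1a-/- arrays. The means of the other marker lists also overlapped between the genotypes, and none of the 10 marker lists had a called gene. Of the cholangiocyte markers, Krt7, Krt19, Sox9, Cftr and Tspan8 were too dim to be tested. Few markers of blood cells were tested: 2 of 10 listed for neutrophils and 3 of 10 for erythroid cells. For T and NK cells 4 of 12 were tested, and for B and plasma cells 4 of 11. The absence of calls in these lists therefore says little. The Rassf1 probe set read 7.44 ± 0.17 (SD, n = 4) in wild-type and 7.2 ± 0.20 in Rassf1a-/- livers, a difference of -0.24 with an adjusted p of 0.667. The annotation gives that probe set to the gene and not to the Rassf1a transcript, so it does not check the deletion. Sav1 read 8.53 ± 0.11 and 8.61 ± 0.14, and Tbk1 8.25 ± 0.20 and 8.31 ± 0.12. The difference of Tbk1 was 0.06, with a 95% interval from -0.49 to 0.61 and an adjusted p of 0.936, and it came to -0.0047 without wild-type replicate 2.

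Of the 13152 genes tested, 92 differed between the genotypes at an adjusted p under 0.05, which is 0.700% of them. The 57 higher genes (0.433%) rose by a median of 0.98, from 0.52 to 3.37, and 24 of them by more than 2-fold. The 35 lower genes (0.266%) changed by a median of -1.09, from -0.55 to -4.16, and 19 of them by more than 2-fold. Changes past 4-fold numbered 2 among the higher and 9 among the lower genes. In all 92 the 4 arrays of one genotype lay beyond the 4 of the other, as did 10.9% of all genes tested, 6.55% above and 4.32% below wild type. The median difference over all genes was -0.01, the 5th and 95th percentiles were -0.38 and 0.42, and the median standard error was 0.18. Of all genes, 48.3% had a difference above 0. Counts of list members below, called or above 0, are to be read beside these shares. A further 91 genes differed by more than 2-fold without being called, with a median standard error of 0.64 against 0.17 for the called genes. In 59 of those 91, Rassf1a-/- replicate 2 was the array farthest from the median of the 8. Without that array the medians of the called genes were 0.94 and -1.07. No sign could change there, since the genotypes overlap in none of the 92. The calls were not all firm: 45 of the 92 stayed called whichever 1 of the 16 arrays was left out, and without Rassf1a-/- replicate 2 there were 61 calls. Dim values bear on some sizes. In wild type 6 of the higher genes had means under the mean filter level of the arrays, which lay between 7.16 and 7.44. They were Arntl, Tubb2b, Gask1a, Tmie, Asap2 and 1 with a gene model name. Among the lower genes, Ciart and Per3 had such means in Rassf1a-/- livers. Those 6 higher genes reached the filter in fewer than 4 arrays of livers with Rassf1a. They were tested only through the livers without it, where they were high. In what follows a number alone in brackets after a difference is its adjusted p, and a second adjusted p given after a gene's own is the highest over these leave-one-out fits, printed where it is above 0.05.

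**Figure D1:**
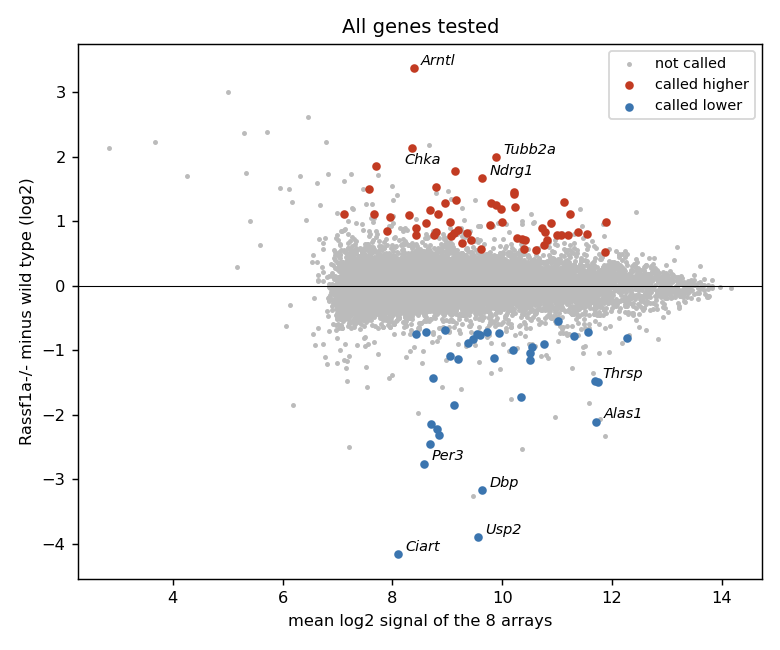
Difference between Rassf1a-/- and wild-type livers (vertical axis, log2) against the mean log2 signal of the 8 arrays (horizontal axis), 1 point per gene for 13152 genes. Red points are the 57 genes called higher and blue points the 35 called lower, with the extremes at Arntl (3.37) and Ciart (-4.16), while genes not called are grey.

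Both clock activators that could be tested rose, beside 0.433% of all genes. Npas2, the other activator listed, is not named by a probe set here. Arntl, which encodes Bmal1, read 6.39, 7.80, 6.46 and 6.19 in the 4 wild-type livers and 10.08, 10.03, 9.95 and 10.25 in the 4 Rassf1a-/- livers. All Rassf1a-/- livers sat close together and above every wild-type liver, and wild-type replicate 2 was the highest of its genotype. The difference was 3.37 ± 0.34 (SE), a 10.3-fold rise and the largest of the 57 (adjusted p 8.51e-05). Its wild-type mean of 6.71 was under the filter level, so the size of its rise and its rank rest on dim values. Arntl was tested only through the livers without Rassf1a, so the count of activators that rose depends in part on its rise. Clock, the partner of Bmal1, read 9.56, 9.86, 9.51 and 9.57 in wild-type and 10.99, 10.92, 10.58 and 10.91 in Rassf1a-/- livers. Its arrays did not overlap either, and it rose by 1.23 ± 0.21 (adjusted p 0.00782).

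Of the 8 clock repressors tested, 4 fell and none rose, beside 0.266% of all genes lower and 0.433% higher. The median of the 8 was -1.39 beside -0.01 for all genes. The lower ones were Ciart, Per3, Per2 and Per1. Ciart, a repressor that binds Bmal1 and Clock, read 9.93, 9.86, 10.44 and 10.50 in wild-type and 5.47, 5.98, 6.17 and 6.45 in Rassf1a-/- livers. The gap between the lowest wild-type and the highest Rassf1a-/- liver exceeded the range within either genotype, and the difference of -4.16 ± 0.50 was the largest of all called genes (adjusted p 0.000397). Per3 read 10.03, 9.71, 9.71 and 10.39 against 6.84, 7.17, 7.68 and 7.13. The groups stood apart, with Rassf1a-/- replicate 3 the nearest to wild type, and Per3 fell by 2.76 on the log2 scale (adjusted p 0.000339). Per2 read 9.97, 9.63, 9.85 and 10.25 against 7.19, 8.26, 7.21 and 8.16. Its Rassf1a-/- livers fell into a lower pair, replicates 1 and 3, and a higher pair, all below wild type, for a difference of -2.22 (adjusted p 0.000483). Per1 read 10.33, 9.71, 9.94 and 10.20 against 8.59, 7.56, 8.08 and 8.56, with replicate 2 the lowest. Its difference of -1.85 passed the test at 0.0209 and missed it at 0.0925 without Rassf1a-/- replicate 2. The repressors that were not called lay on both sides: Bhlhe40 at -0.93 (adjusted p 0.069) and Nr1d2 at -0.60 (0.182), each below all wild-type livers, Cry2 at -0.20 (0.681), and Nr1d1, which encodes Rev-erb alpha, at 0.66 (0.165) and above all wild-type livers. Cry1 and Bhlhe41 were too dim to be tested. Of all genes tested, 4.32% lay below and 6.55% above all wild-type livers.

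The factors that act through D-boxes fell with the Per genes. Dbp read 11.33, 10.54, 11.30 and 11.70 in wild-type and 7.42, 8.81, 8.14 and 7.81 in Rassf1a-/- livers. Wild-type replicate 2 was the lowest wild-type and Rassf1a-/- replicate 2 the highest Rassf1a-/- liver, with a wide gap between them. Dbp fell by 3.17 on the log2 scale, 9.0-fold (adjusted p 0.00169). Tef read 11.13, 10.96, 11.17 and 11.54 against 9.27, 9.67, 9.64 and 9.36 and fell by 1.72 (adjusted p 0.000383), with tight groups. The other members of that list were not called: Hlf was at -0.39 (adjusted p 0.369), Rora at 0.31 (0.597) and Nfil3, a repressor at the same D-boxes, at 0.89 (0.221), above all wild-type livers. Of the 5 tested, 2 were called, beside 0.700% of all genes, with a median of -0.39.

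Promoter windows are shown for clock genes that hold a match to a clock motif, in capitals. The windows of Clock, Dbp and Usp2, which are among the main clock changes, hold no match and are not shown, which says only that those letters are not in these windows. They run from 250 bases before to 50 bases after a transcription start, from RefSeq on GRCm38.p6, 5′ to 3′ on the gene's strand. Of the 20 called genes in the clock, rhythmic output and beta tubulin lists, 17 matched the promoter table. The motifs searched, on both strands, were the E-box CACGTG, the D-box TTANGTAA, the element bound by Ror and Rev-erb receptors, which ends in GGTCA, and the cyclic AMP element TGACGTCA. Among 32851 promoter windows of the same length they occurred in 7.15%, 2.32%, 0.606% and 1.79%. Ciart (chr3:95882179-95882478, minus strand) holds 3 E-boxes, beginning at -116, -58 and -44 from the start, Tef (chr15:81802423-81802722, plus strand) 1 at -127, and Per1 (chr11:69098699-69098998, plus strand) 1 at -166. A second window of Tef, not shown, holds 1 E-box at -138, and a second window of Per1 holds no match. Per3 (chr4:151044616-151044915, minus strand) holds 2 D-boxes, at -205 and -158. One of the 2 Arntl windows (chr7:113207261-113207560, plus strand) holds a Ror and Rev-erb element at position 27 after the start. No 2 of these matches overlap.
Arntl: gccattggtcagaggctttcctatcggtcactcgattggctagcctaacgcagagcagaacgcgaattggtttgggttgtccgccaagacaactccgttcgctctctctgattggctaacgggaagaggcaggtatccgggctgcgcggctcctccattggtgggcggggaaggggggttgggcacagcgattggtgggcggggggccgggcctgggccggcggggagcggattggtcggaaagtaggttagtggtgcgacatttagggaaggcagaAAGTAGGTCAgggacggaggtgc
Ciart: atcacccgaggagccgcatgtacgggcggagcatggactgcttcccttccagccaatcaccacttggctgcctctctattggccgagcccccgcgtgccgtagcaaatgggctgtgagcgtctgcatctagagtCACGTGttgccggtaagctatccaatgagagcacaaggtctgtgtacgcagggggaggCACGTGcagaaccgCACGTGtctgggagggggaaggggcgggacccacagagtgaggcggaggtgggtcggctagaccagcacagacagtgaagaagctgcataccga
Per3: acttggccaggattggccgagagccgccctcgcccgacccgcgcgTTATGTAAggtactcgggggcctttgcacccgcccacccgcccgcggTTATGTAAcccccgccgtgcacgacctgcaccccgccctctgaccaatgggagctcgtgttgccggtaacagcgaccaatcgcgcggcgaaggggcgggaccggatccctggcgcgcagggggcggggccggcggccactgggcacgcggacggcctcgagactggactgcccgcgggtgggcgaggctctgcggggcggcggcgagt
Per1: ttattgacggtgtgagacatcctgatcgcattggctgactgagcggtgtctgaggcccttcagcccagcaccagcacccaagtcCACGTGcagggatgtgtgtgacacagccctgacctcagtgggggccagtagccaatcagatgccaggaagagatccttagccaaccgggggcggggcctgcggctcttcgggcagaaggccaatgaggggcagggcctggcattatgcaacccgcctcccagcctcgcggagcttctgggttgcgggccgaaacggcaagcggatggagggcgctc
Tef: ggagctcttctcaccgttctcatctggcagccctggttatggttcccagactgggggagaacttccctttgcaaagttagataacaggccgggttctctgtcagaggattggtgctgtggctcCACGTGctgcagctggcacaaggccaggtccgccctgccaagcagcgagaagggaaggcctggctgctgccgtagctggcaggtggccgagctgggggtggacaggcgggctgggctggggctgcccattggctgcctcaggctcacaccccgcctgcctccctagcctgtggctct
E-boxes were found in windows of 6 of the 17 genes (also Tspan4, Ppp1r3c and Tubb5), D-boxes in 1 and Ror and Rev-erb elements in 1. Over the genes tested that have a window, 10421 in number, the shares were 11.3% for the E-box, 2.06% for the D-box and 0.528% for the Ror and Rev-erb element. A match describes the letters of the window and is no measure of binding.

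Among 21 liver genes listed for their daily rhythm, 7 fell and 1 rose, beside 0.266% of all genes lower and 0.433% higher. Their median was -0.62. Usp2, a deubiquitinase under clock control, read 11.43, 11.27, 11.56 and 11.78 in wild-type and 7.53, 7.66, 7.79 and 7.47 in Rassf1a-/- livers. Both groups were tight, and Usp2 had the smallest adjusted p of the comparison, 1.99e-05, with a difference of -3.90 ± 0.33. Wee1, the kinase that holds back entry into mitosis, read 9.50, 9.34, 10.17 and 10.58 against 7.17, 7.45, 7.45 and 7.74 and fell by 2.45 (adjusted p 0.00114). Wild-type replicates 3 and 4 were its highest livers. Noct, a phosphatase of NADP(H) with a strong daily rhythm, read 9.84, 9.88, 10.36 and 9.92 against 8.31, 6.27, 7.43 and 8.75. The Rassf1a-/- livers were widely spread with replicate 2 lowest, and the difference of -2.31 had an adjusted p of 0.0390, and 0.151 without wild-type replicate 3. Without Rassf1a-/- replicate 2 it was -1.84.

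Alas1, the first and rate-limiting enzyme of haem synthesis, read 13.03, 12.46, 12.99 and 12.60 in wild-type and 11.27, 9.26, 10.76 and 11.35 in Rassf1a-/- livers. Replicate 2 was far below the other Rassf1a-/- livers, which were themselves below every wild-type liver. The difference was -2.11 ± 0.35 (adjusted p 0.00560), and -1.65 without that replicate. It was the one call among 14 genes of haem synthesis and breakdown. Mfsd2a, the transporter of lysophosphatidylcholine that carries docosahexaenoic acid, read 12.81, 12.25, 12.64 and 12.23 against 11.76, 10.36, 10.55 and 11.29. The highest Rassf1a-/- liver came near the lowest wild-type livers, and Mfsd2a fell by 1.5 (adjusted p 0.0233, and 0.0999 without Rassf1a-/- replicate 2). Nampt, the rate-limiting enzyme of NAD salvage, read 11.21, 10.80, 10.81 and 11.48 against 9.97, 9.55, 10.03 and 10.15 and fell by 1.15 (adjusted p 0.00682). It was the only call among 17 genes of NAD synthesis. Tspan4, a tetraspanin, fell by 0.78 (0.0146, and 0.0696 without wild-type replicate 1). Ppp1r3c, a subunit that targets protein phosphatase 1 to glycogen, read 8.77, 9.93, 9.67 and 9.59 in wild-type and 10.93, 11.23, 10.60 and 11.02 in Rassf1a-/- livers. It was the rhythmic gene that rose, by 1.46 (adjusted p 0.00406), with wild-type replicate 1 the lowest array, and the only call among 18 glycogen genes. Of the 13 that were not called, Leo1 was at 0.86 (adjusted p 0.069), Insig2 at 0.92 (0.137), Upp2 at -1.02 (0.076) and Nrg4 at -1.57 (0.102), each with arrays beyond all those of wild type. Among all genes tested, 6.55% were above and 4.32% below all wild-type arrays.

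**Figure D2:**
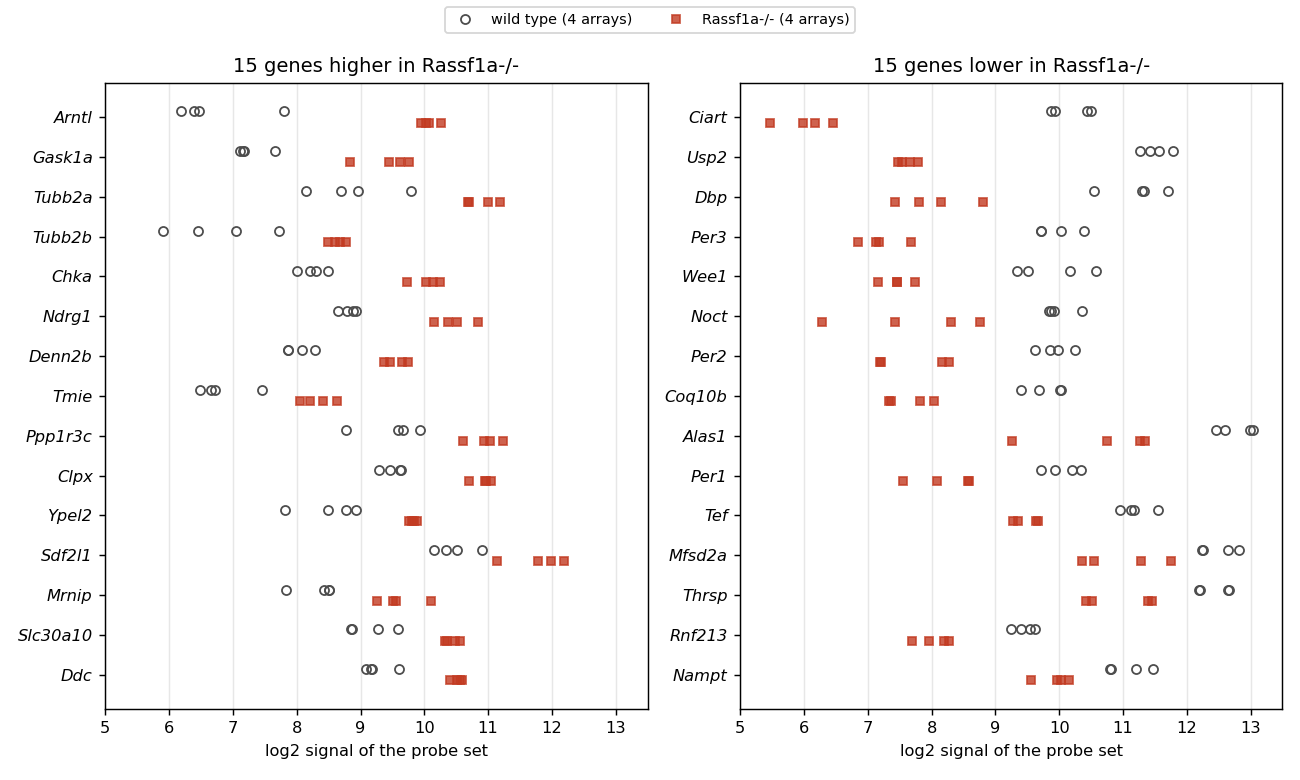
Log2 signal (horizontal axis) in each array for the 15 higher (left) and 15 lower genes (right) with the largest differences. Open circles are the 4 wild-type and red squares the 4 Rassf1a-/- livers. In each of the 30 genes the 2 sets do not overlap, which was a condition of the choice, and the widest gaps are those of Arntl, Ciart and Usp2.

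The beta tubulins were the other gene family with several called members. Of 5 tested 4 rose, beside 0.433% of all genes, and none fell, with a median of 0.98. Tubb2b was tested only through the livers without Rassf1a, so this count and median depend in part on its rise. Tubb2a read 8.15, 9.79, 8.96 and 8.70 in wild-type and 11.00, 10.70, 10.68 and 11.18 in Rassf1a-/- livers. Wild-type replicate 2 was again the highest wild-type liver, as for Arntl, and still lay below all Rassf1a-/- livers. Tubb2a rose 3.97-fold, by 1.99 ± 0.27 (adjusted p 0.00103), and by 2.29 without wild-type replicate 2. Tubb2b, its close relative, read 5.91, 7.73, 7.04 and 6.45 against 8.6, 8.49, 8.67 and 8.77. Its wild-type livers were spread widely, with the same replicate highest, while the Rassf1a-/- livers were nearly level, and the difference was 1.85 ± 0.28 (adjusted p 0.00249). Its wild-type mean of 6.78 was under the filter level, so the size of its rise rests on dim values.

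Tubb1, known from platelets, read 7.75, 8.51, 8.46 and 7.79 in wild-type and 8.99, 9.06, 9.11 and 9.26 in Rassf1a-/- livers and rose by 0.98 (adjusted p 0.00682). Tubb5, the widely expressed isotype, read 10.53, 10.57, 10.82 and 10.51 against 11.33, 11.56, 11.15 and 11.55 and rose by 0.79 (adjusted p 0.00795). In both the genotypes did not overlap. Tubb6 read 8.37, 9.01, 8.74 and 8.36 against 8.93, 9.06, 8.98 and 9.65, with overlapping groups, a difference of 0.53 and an adjusted p of 0.266. Tubb3 and Tubb4a were too dim to be tested, and Tubb4b has no probe set that names it alone. Probe sets of such similar genes can share transcripts, so that the share of each isotype in the rise is uncertain. The Tubb2a window (chr13:34077959-34078258, minus strand, RefSeq GRCm38.p6) is shown because Tubb2a had the largest rise of the family, with its 1 cyclic AMP element, at -59, in capitals.
Tubb2a: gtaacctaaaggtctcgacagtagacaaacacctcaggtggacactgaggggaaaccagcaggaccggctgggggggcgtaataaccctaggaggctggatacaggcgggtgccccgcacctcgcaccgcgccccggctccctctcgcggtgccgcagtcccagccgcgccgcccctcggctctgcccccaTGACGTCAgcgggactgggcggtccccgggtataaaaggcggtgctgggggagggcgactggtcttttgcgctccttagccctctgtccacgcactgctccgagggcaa
That element was found in no other window of the 17 genes.

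None of the 8 alpha, gamma, delta and epsilon tubulins tested was called, and their median was 0.11. Tuba4a was the nearest at 0.48 (adjusted p 0.286), followed by Tuba1a at 0.21 (0.580). None of the 21 genes of tubulin folding and autoregulation was called, and 19 of them had a difference above 0 and their median was 0.14. Tbcel had the smallest adjusted p of these, 0.479, and Ttc5, which recognises nascent tubulin when tubulin transcripts are degraded, was too dim to be tested. Of the 19 microtubule-associated proteins and motors none was called. Outside these lists Ttll12, a tubulin tyrosine ligase-like protein, rose by 0.79 (0.0491, and 0.186 without Rassf1a-/- replicate 4).

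Several of the largest rises belonged to neither family. Gask1a, a Golgi-associated kinase, read 7.12, 7.67, 7.16 and 7.18 in wild-type and 9.62, 8.83, 9.76 and 9.45 in Rassf1a-/- livers and rose by 2.14 (adjusted p 0.00880). Its wild-type mean of 7.28 was under the filter level, with replicate 2 the highest, so the size of its rise rests on dim values. Gask1a was tested only through the livers without Rassf1a. Chka, choline kinase alpha, which starts the synthesis of phosphatidylcholine from choline, read 8.30, 8.49, 8.01 and 8.20 against 10.24, 10.13, 9.72 and 10.02. Both groups were tight and far apart, and Chka rose 3.43-fold, by 1.78 ± 0.24 (adjusted p 0.00103), as the only call among 16 genes of phosphatidylcholine synthesis. Ndrg1, a stress-responsive gene induced by hypoxia, read 8.64, 8.92, 8.78 and 8.88 against 10.84, 10.52, 10.16 and 10.37. Its wild-type livers were the more uniform, the difference was 1.67 ± 0.15 (adjusted p 3.47e-05), and neither the other 14 hypoxia-induced genes tested nor Ndrg2, Ndrg3 and Ndrg4 were called. Denn2b, a DENN domain protein that activates Rab GTPases, read 7.86, 8.29, 7.86 and 8.08 against 9.75, 9.37, 9.47 and 9.64. The groups stood clear of each other, with a difference of 1.54 (adjusted p 0.000405).

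Tmie, a transmembrane protein known from inner ear hair cells, read 6.49, 7.45, 6.71 and 6.65 in wild-type and 8.41, 8.06, 8.63 and 8.20 in Rassf1a-/- livers and rose by 1.5 (adjusted p 0.00114). Wild-type replicate 2 was its highest wild-type liver and the others were dim. Its wild-type mean of 6.83 was under the filter level, and Tmie was tested only through the livers without Rassf1a. Clpx, the unfoldase of the mitochondrial protease ClpXP, read 9.46, 9.61, 9.29 and 9.63 against 10.96, 10.70, 11.05 and 10.95. It rose by 1.42 (adjusted p 0.000405) with close replicates, alone among 13 genes of mitochondrial proteolysis and quality control; its protease partner Clpp was at 0.25 (adjusted p 0.479). Clpx is also known to activate the Alas1 protein and to take part in its turnover in mitochondria. Ypel2, of the yippee-like family, read 8.93, 8.49, 7.82 and 8.77 against 9.84, 9.76, 9.89 and 9.81. The Rassf1a-/- livers were almost equal and the wild-type livers were spread below them, for a difference of 1.33 (adjusted p 0.00560).

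Sdf2l1, a cofactor of endoplasmic reticulum chaperones, read 10.90, 10.52, 10.34 and 10.14 in wild-type and 11.77, 12.19, 11.14 and 11.98 in Rassf1a-/- livers. The lowest Rassf1a-/- liver, replicate 3, came close to the highest wild-type liver, and the rise of 1.30 had an adjusted p of 0.0160, and 0.0742 without wild-type replicate 4. Herpud1, which acts in degradation of misfolded proteins at the same organelle, fell by 0.82 (adjusted p 0.0117, and 0.0612 without Rassf1a-/- replicate 1). These were the 2 calls among 22 genes of the unfolded protein response, in opposite directions, beside 0.700% of all genes. The median of the list was 0.13. Mrnip, a partner of the Mre11 complex, read 8.50, 8.50, 8.43 and 7.83 against 9.56, 10.10, 9.25 and 9.50 and rose by 1.29 (adjusted p 0.00182). Wild-type replicate 4 was well under the other wild-type livers. Slc30a10, the exporter of manganese, read 8.86, 9.58, 9.28 and 8.87 against 10.56, 10.48, 10.33 and 10.35 and rose by 1.28 (adjusted p 0.00422), the only call among 18 metal transporters and metallothioneins. Ddc, aromatic amino acid decarboxylase, read 9.18, 9.61, 9.09 and 9.17 against 10.41, 10.51, 10.60 and 10.55. It rose by 1.25 (adjusted p 0.000339), again with wild-type replicate 2 nearest to the Rassf1a-/- livers.

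Large falls outside the rhythmic lists were fewer. Coq10b, which binds coenzyme Q, read 10.01, 9.41, 10.03 and 9.69 in wild-type and 7.33, 8.04, 7.36 and 7.81 in Rassf1a-/- livers. The groups were clear of each other, with wild-type replicate 2 and Rassf1a-/- replicate 2 the nearest arrays, and Coq10b fell by 2.15, 4.43-fold (adjusted p 0.00103). Coq8a, an atypical kinase of coenzyme Q synthesis, moved the other way, by 0.98 (adjusted p 0.00140), and the other 10 coenzyme Q genes tested were not called. Thrsp (Spot14), which promotes fatty acid synthesis, read 12.19, 12.66, 12.21 and 12.65 against 10.52, 10.43, 11.39 and 11.46. Both genotypes split into pairs, and Thrsp fell by 1.48 (adjusted p 0.00678), the 1 call among 21 genes of fatty acid synthesis, in which Srebf1 was at -0.76 (adjusted p 0.107). Rnf213, a very large ubiquitin ligase, read 9.62, 9.25, 9.41 and 9.55 against 8.19, 7.69, 7.96 and 8.27. It fell by 1.43 (adjusted p 0.00782), with replicate 2 the lowest array.

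The remaining called genes changed less. Gldc and Amt, the glycine decarboxylase and the aminomethyltransferase of the mitochondrial glycine cleavage system, both rose, Gldc by 0.80 (adjusted p 0.0174, and 0.0891 without wild-type replicate 3) and Amt by 0.70 (0.0186, and 0.0933 without wild-type replicate 3). They were the 2 calls among 22 genes of amino acid and one-carbon metabolism, beside 0.700% of all genes. The median of that list was -0.05, and 0.01 without Rassf1a-/- replicate 2. Slc1a2, a glutamate transporter of pericentral hepatocytes, fell by 0.90 (0.0352, and 0.148 without Rassf1a-/- replicate 4), as the 1 call among 17 amino acid transporters, of which 15 had a difference under 0. Notum, a deacylase that inactivates Wnt proteins and also marks pericentral hepatocytes, fell by 0.88 (0.0154, and 0.0782 without wild-type replicate 3). Of the 20 pericentral genes tested these 2 fell, beside 0.266% of all genes. A difference under 0 was found in 16 of the 20, with a median of -0.21, where 48.3% of all genes were above 0. The Wnt targets Glul, at -0.34 (adjusted p 0.420), and Slc13a3, at -1.07 (0.311), were not called. None of 15 periportal genes was called. Psmd14, the deubiquitinase of the proteasome lid, rose by 0.71 (0.0268, and 0.113 without wild-type replicate 1), and of the 26 proteasome subunits 24 were above 0, with a median of 0.16.

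Of the 58 called genes that belong to no list, transcription regulators and signalling proteins included Rfx4, higher by 1.11 (0.0186, and 0.0930 without wild-type replicate 3), and the nuclear receptor coregulators Pnrc1, higher by 0.83 (0.00267), and Pnrc2, higher by 0.63 (0.0155, and 0.0786 without wild-type replicate 3). Cebpb, a factor of liver regeneration and the acute phase, fell by 1.09 (0.0255, and 0.107 without wild-type replicate 1), and Klf13 by 1.12 (0.00114). Of 23 acute phase genes none was called, and 21 had a difference under 0, with a median of -0.20, and of -0.13 without Rassf1a-/- replicate 2. Tab2, an adaptor of the kinase Tak1, rose by 0.83 (0.0296, and 0.131 without Rassf1a-/- replicate 1). Mknk2, a kinase of the cap-binding factor eIF4E, fell by 0.99 (0.0186, and 0.0812 without wild-type replicate 4), and Cpeb4, which binds polyadenylation elements in messenger RNA, rose by 0.98 (0.0353, and 0.161 without wild-type replicate 3). The receptors Epha1 and P2ry1 fell by 0.68 (0.0481, and 0.180 without wild-type replicate 1) and 0.72 (0.0434, and 0.150 without wild-type replicate 4).

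The ubiquitin ligases Dtx4, Rnf125, Nedd4l and Trim2 rose, Dtx4 by 1.17 (adjusted p 0.000339), Rnf125 by 1.11 (0.0132, and 0.0677 without wild-type replicate 3), Nedd4l by 0.74 (0.0113, and 0.0513 without wild-type replicate 4) and Trim2 by 0.81 (0.0469, and 0.180 without Rassf1a-/- replicate 4). They were put side by side after their values were seen, and another ligase, Rnf213, fell. Mad2l2, a subunit of DNA polymerase zeta and of shieldin, rose by 1.18 (0.00182), and Ccng2, an atypical cyclin, by 1.10 (0.00782). None of 11 genes of cell division and DNA replication that could be tested was called. Raet1d, a ligand of the NKG2D receptor, rose by 1.06 (0.0231, and 0.0999 without Rassf1a-/- replicate 2). Ubxn1, a cofactor of the ATPase p97, and Hikeshi, which imports Hsp70 into the nucleus, rose by 0.56 (0.0290, and 0.122 without wild-type replicate 3) and 0.56 (0.0215, and 0.0953 without wild-type replicate 3).

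Septin9, a septin, rose by 0.90 (0.00158), Mical2, which oxidises actin, by 0.84 (0.00453), and Kank1, a scaffold at focal adhesions, by 0.87 (0.0371, and 0.158 without Rassf1a-/- replicate 4). Asap2, which switches off Arf GTPases, rose by 1.12 (0.00560). Its wild-type mean of 7.11 was under the filter level, and it was tested only through the livers without Rassf1a. Tjp3, the tight junction protein ZO-3, rose by 0.99 (0.0302, and 0.110 without wild-type replicate 4), and Sntg2, a syntrophin, by 0.76 (0.00678). Efhd2, an actin-binding protein, fell by 0.95 (0.0116, and 0.0562 without wild-type replicate 1), and Marveld1 by 0.75 (0.0132, and 0.0643 without wild-type replicate 4).

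In mitochondria, Mcu, the pore of the calcium uniporter, rose by 0.94 (0.00114), and Ssbp1, which binds single-stranded mitochondrial DNA, by 0.57 (0.0199, and 0.0925 without Rassf1a-/- replicate 2). None of 33 respiratory chain subunits was called, with 29 above 0 and a median of 0.11. In the secretory pathway Ostc, of the oligosaccharyltransferase, and Nbas, of retrograde transport, rose by 0.52 (0.0307, and 0.148 without Rassf1a-/- replicate 4) and 0.71 (0.0233, and 0.119 without wild-type replicate 3). The neighbouring torsin genes Tor1a and Tor1b, ATPases of the endoplasmic reticulum and nuclear envelope, fell by 0.55 (0.0186, and 0.0798 without Rassf1a-/- replicate 4) and 0.76 (0.0296, and 0.118 without wild-type replicate 1). B4galt5, which makes lactosylceramide, fell by 1.04 (0.0207, and 0.0933 without wild-type replicate 3), Atp10d, a lipid flippase, by 0.71 (0.0296, and 0.121 without Rassf1a-/- replicate 2), and Agpat1, which makes phosphatidic acid, by 0.74 (0.00782). Slc37a4, the glucose-6-phosphate transporter of the endoplasmic reticulum, fell by 0.71 (0.0144, and 0.0683 without wild-type replicate 1), Alpl, the tissue-nonspecific alkaline phosphatase, by 1.13 (0.00144), and Rhbdd2, a rhomboid-like protein, by 0.73 (0.0199, and 0.0888 without wild-type replicate 1). Sdr9c7, a dehydrogenase, rose by 0.98 (0.00744), Mreg, melanoregulin, by 0.78 (0.00639), and Jpt2 by 0.78 (0.00388). Abtb2 rose by 0.81 (0.0199, and 0.0926 without wild-type replicate 1), Elp4, of the Elongator complex, by 0.66 (0.0353, and 0.148 without Rassf1a-/- replicate 4), and Tmem218 by 0.84 (0.0337, and 0.148 without wild-type replicate 3). Of the called genes not named here, 3 carry only clone or gene model names, and these were all higher.

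No gene of the pathway in which Rassf1a is best known was called. Of 27 Hippo pathway genes, 18 were above 0 and the median was 0.07, or 0.02 without wild-type replicate 2. Stk4, the Mst1 kinase that Rassf1a binds, was at 0.30 (adjusted p 0.476) and Nf2 at 0.51 (0.523). The 19 targets of the coactivator Yap that could be tested had a median of -0.06, with 9 above and 10 below 0, and Asap1 was the nearest to the threshold at 0.53 (0.279). The median of that list changed sign, to 0.0052, with arrays centred on their medians, and to 0.0042 without Rassf1a-/- replicate 2. The other 7 RASSF family genes tested besides Rassf1 were not called, and neither were the 12 genes around Tbk1, with a median of 0.06. Among 16 interferon-stimulated genes, downstream of Tbk1, 13 were above 0 with a median of 0.21, which was 0.13 without wild-type replicate 2, and Cmpk2, at 0.97, had the smallest adjusted p, 0.106. Genes of fetal liver and liver tumours gave no call among 8 tested, and Afp was at -0.14 (0.737). In bile acid synthesis and transport 9 of 21 genes had arrays beyond all those of wild type, 3 above and 6 below, where 10.9% of all genes tested did, 6.55% above and 4.32% below, and none was called. Cyp8b1 was at 0.94 (0.141) and Hsd3b7 at 0.48 (0.125). The xenobiotic receptors Nr1i3 (CAR) and Nr1i2 (PXR) missed the threshold at -0.65 (0.070) and -0.56 (0.067).

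**Figure D3:**
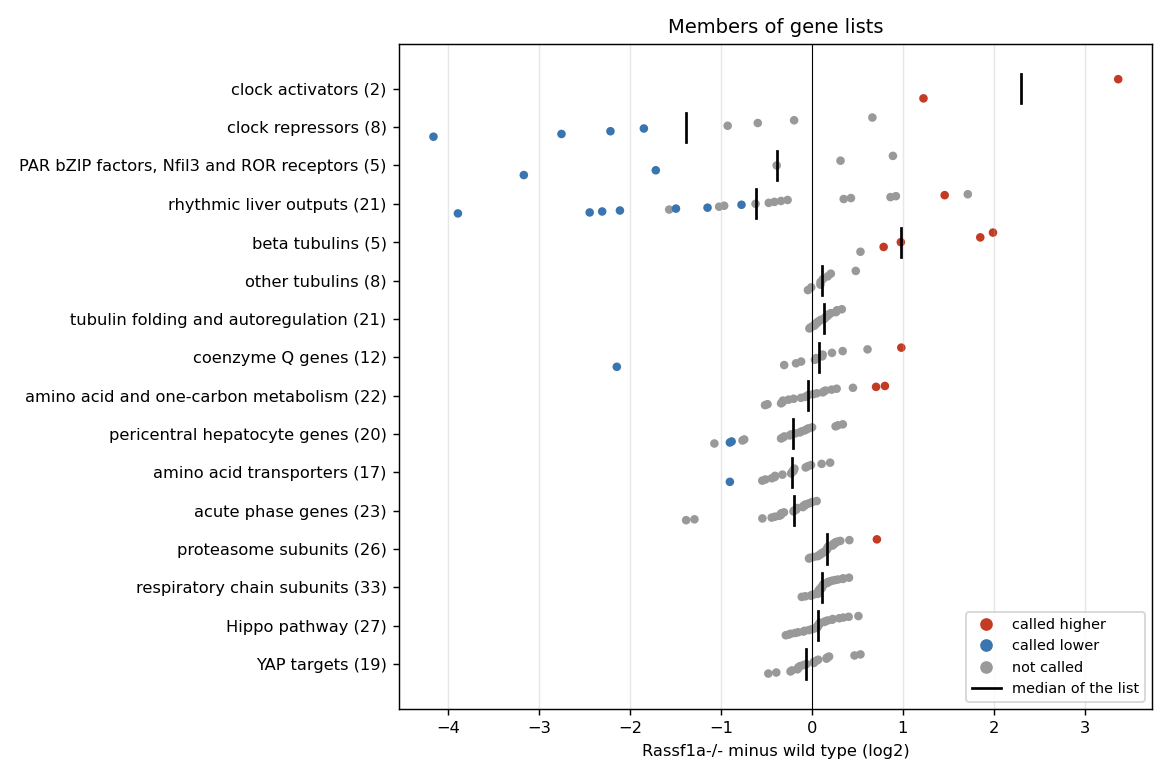
Difference between Rassf1a-/- and wild-type livers (horizontal axis, log2) for each tested member of 16 gene lists, with the number tested in brackets. Red points were called higher, blue points lower and grey points not called, and the black bar is the list's median: 2.30 for the clock activators, -1.39 for the clock repressors and 0.98 for the beta tubulins, against 0.07 for the Hippo pathway.

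The 13 male-biased genes tested had a median of 1.27 and the 11 female-biased genes one of -0.77, none of them called. Without Rassf1a-/- replicate 2, the 1 array of the comparison with high Y-linked and low Xist signal, the medians were 0.29 and 0.04.

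Wild-type replicate 2 was the wild-type liver nearest to the Rassf1a-/- livers in 27 of the 57 higher and 27 of the 35 lower genes. Its position was seen above for Arntl, Dbp, Tubb2a and Tubb2b. Among the Rassf1a-/- livers, replicate 3 was the nearest to wild type in 32 of the 57 higher genes and replicate 4 in 15 of the 35 lower genes. Leaving out wild-type replicate 2 gave medians of 2.52 for the clock activators, -1.47 for the clock repressors and 1.11 for the beta tubulins. The hour of collection is not labelled, and its part in these values was not tested.

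Genes near Rassf1 on chromosome 9 were examined separately. Of the 36 tested genes among the 25 coding genes on either side, none was called, 11 were above 0 and the median was -0.19. Among 75 genes within 50 on either side, Alas1 and Amt were called, each 32 genes away on opposite sides. That is 2.67% of the 75, beside 0.700% of all genes. Within 100 on either side the same 2 were the only calls among 142 genes, or 1.41%. Of the near neighbours, Gnat1 was at -1.26 (adjusted p 0.059) and below all wild-type livers, and Slc38a3 at -0.41 (0.216).

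The loss of Rassf1a could be measured again in livers with 1 Sav1 allele, between 4 Rassf1a-/- Sav1+/- and 4 Sav1+/- arrays. High Y-linked and low Xist signals were found here in Sav1+/- replicates 3 and 4 and in Rassf1a-/- Sav1+/- replicates 1 and 2. In the first comparison only Rassf1a-/- replicate 2 had them, and the part of this in what differs between the comparisons was not tested. The values of the second comparison have no part in the differences of the first, but all 16 arrays share the filter and the estimate of spread. There 110 genes were called, 0.836% of those tested, 88 higher and 22 lower. The 2 sets shared 34 genes changed the same way, 37.0% of the 92 and 30.9% of the 110. Of the 57 genes higher in the first comparison 54 were above 0 in the second and 25 were called higher. Of the 35 lower genes 30 were below 0 and 9 were called lower. The medians were 0.65 and -0.50, beside 0.08 for all genes, and the difference was smaller than in the first comparison in 52 of 57 and 33 of 35. The genes were selected on the first comparison, which by itself makes their differences there larger. No gene passed the test of the difference between the 2 comparisons (smallest adjusted p 0.316), while 1236 had an unadjusted p under 0.05. The second set of calls was less firm, and the 34 shared genes with it. The 110 calls came to 1 with only the compared genotypes fitted. They came to 0 once the 5 arrays with high Y-linked signal were left out. That left only Sav1+/- replicates 1 and 2 and Rassf1a-/- Sav1+/- replicates 3 and 4 to compare. Single arrays left out gave between 27 and 478 calls. Those extremes came without Rassf1a-/- Sav1+/- replicate 2 and without Sav1+/- replicate 2.

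The clock and tubulin genes were among those called in both. Arntl read 5.77, 7.41, 6.96 and 6.70 in the Sav1+/- and 9.41, 10.15, 9.97 and 9.34 in the Rassf1a-/- Sav1+/- livers, a difference of 3.01 (adjusted p 0.000637). The groups did not overlap and lay at nearly the levels of the first comparison. Ciart differed by -3.64 (adjusted p 0.00239), Usp2 by -2.98 (0.000637), Dbp by -2.17 (0.0362) and Per3 by -1.78 (0.0134). Clock, at 0.80 (0.0920), Per1, at -1.50 (0.0692), and Per2, at -1.21 (0.050), were not called there. Tubb2a read 8.89, 8.94, 9.0 and 9.15 in the Sav1+/- and 10.08, 10.91, 10.92 and 10.34 in the Rassf1a-/- Sav1+/- livers, without overlap, a difference of 1.57 (0.0108). Tubb2b, at 1.47 (0.0199), and Tubb1, at 0.74 (0.0466), were called, and Tubb5, at 0.50 (0.0954), was not. Chka at 1.73 (0.00239), Ndrg1 at 1.03 (0.00394), Clpx at 1.16 (0.00394), Coq10b at -1.94 (0.00394) and Thrsp at -1.51 (0.00867) were called in the same direction. List medians there were 1.91 for clock activators, -0.97 for clock repressors, 0.74 for beta tubulins and 0.05 for proteasome subunits. Several other lists had a median of the opposite sign to the first comparison. Interferon-stimulated genes were at -0.48, cytosolic ribosomal proteins at -0.24 and respiratory chain subunits at -0.09. Acute phase genes were at 0.19, pericentral genes at 0.11 and amino acid transporters at 0.12.

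**Figure D4:**
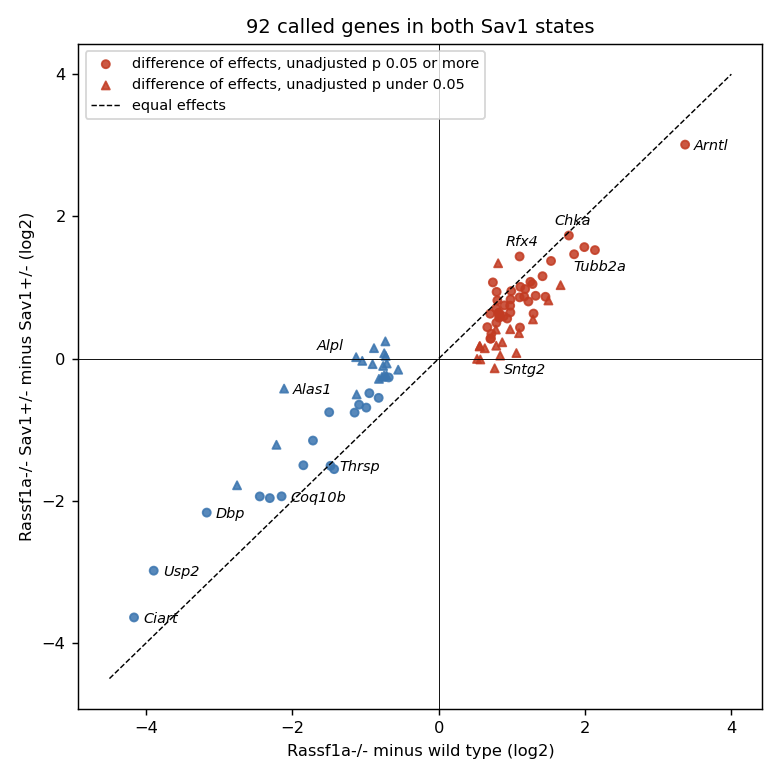
Difference with loss of Rassf1a in livers with both Sav1 alleles (horizontal axis, log2) and in livers with 1 Sav1 allele lost (vertical axis, log2) for the 92 called genes, red where called higher and blue where called lower in the first comparison. Triangles mark an unadjusted p under 0.05 for the difference of the 2 effects, and most points lie nearer to 0 than the dashed line of equal effects, with Alas1 at -2.11 and -0.42.

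Some genes called in the first comparison differed little or not at all in the second. Alas1 read 12.03, 12.17, 12 and 12.74 in the Sav1+/- and 12.12, 11.47, 11.51 and 12.15 in the Rassf1a-/- Sav1+/- livers, a difference of -0.42 (adjusted p 0.621). These groups overlapped, between the wild-type and the Rassf1a-/- levels. Alpl was at 0.02 (0.973) after -1.13, and its Sav1+/- mean of 8.77 was already near the Rassf1a-/- mean of 8.63, against 9.76 in wild type. Notum was at 0.15 (0.743), Rhbdd2 at 0.24 (0.457), Agpat1 at 0.07 (0.838) and P2ry1 at 0.04 (0.945). Sntg2, among the higher genes, was at -0.14 (0.678) after 0.76. The smallest unadjusted p of the difference among these was 0.000102 for Alpl, followed by 0.000135 for Sntg2 and 0.000179 for Rhbdd2, and none passed after adjustment.

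**Figure D5:**
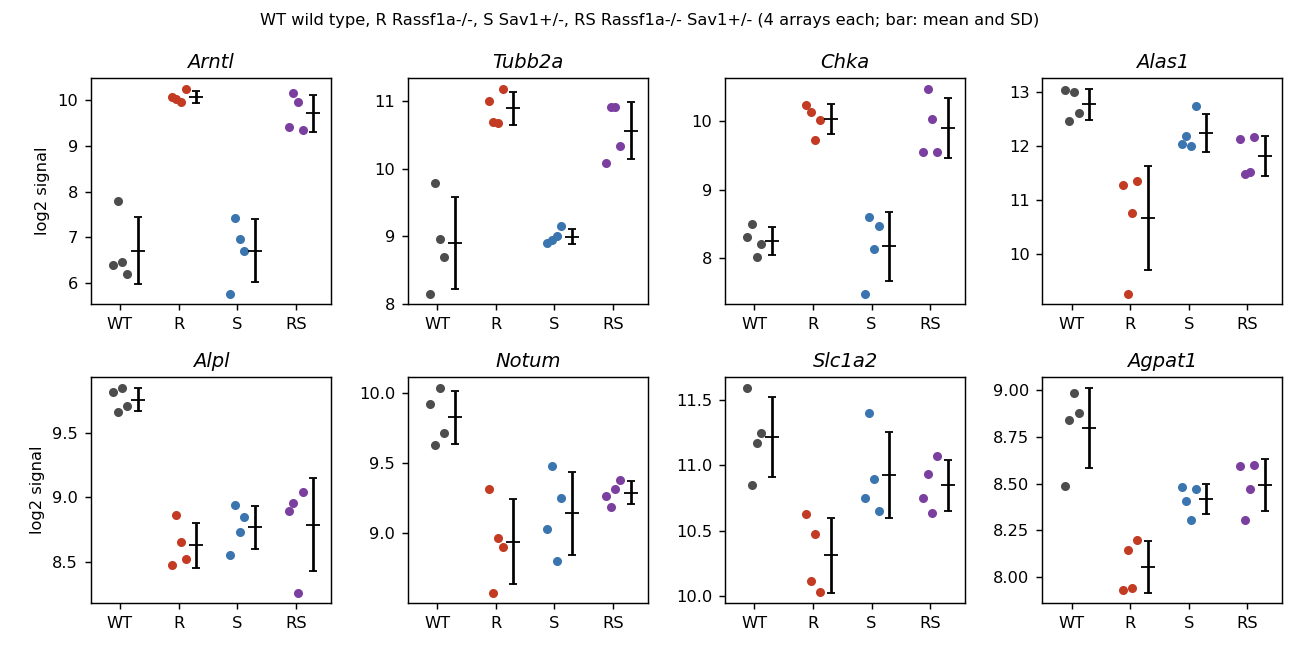
Log2 signal (vertical axis) in each of 4 arrays per genotype for 8 called genes, with mean and SD beside the points. Arntl, Tubb2a and Chka are high in both genotypes without Rassf1a, whereas Alas1, Alpl, Notum, Slc1a2 and Agpat1 are low in Rassf1a-/- against wild-type livers and overlap between Sav1+/- and Rassf1a-/- Sav1+/- livers.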

How the data were processed

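The data were log2 signals of 35556 probe sets in 16 arrays, as deposited by the authors in the series' value table. Per the submitters' processing notes they were made with Affymetrix Expression Console; the sources used here do not give its version, the summarisation method or the genome build. Of the probe sets, 21789 name exactly 1 gene in the platform annotation, 1621 several and 12146 none, and 21698 of the first kind were matched to RefSeq symbols (GRCm38.p6) by gene identifier. A probe set was kept when it reached the array's 40th percentile, taken over probe sets with 1 gene, in at least 4 arrays, and the one with the highest mean stood for its gene (13152 genes). Reads have no part in an array, so the number of arrays limits the precision.

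The main test was limma 3.58.1 in R 4.3.3 (lmFit and eBayes) with 4 genotype means, 12 residual degrees of freedom and no covariate, on two-sided p-values with Benjamini-Hochberg adjustment over all genes and a threshold of 0.05. The script recovered 4-fold changes put into simulated arrays with independent normal noise and no outlying array. Recovery of smaller changes was not required there, so the simulation does not vouch for the smaller calls. Contrasts were Rassf1a-/- against wild type, Rassf1a-/- Sav1+/- against Sav1+/-, and the difference of the 2. Alternatives were other filters, probe set rules, variance models, scalings, a Y-linked covariate, and each array left out. Replicates are numbered in deposit order.

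The 15 higher and 15 lower called genes with the largest differences and no overlap are given with all arrays, as are Clock and the tested beta tubulins. Rassf1, Sav1 and Tbk1 are given with mean and SD. Other called genes with a proper name, apart from some not reported here, are given with their difference, and up to 4 uncalled members of a list may be named. The comparison, its 49 gene lists and 10 marker lists were chosen with earlier results of these data known, so the lists carry no test and no independent support.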

Additional observations from a re-analysis of the deposited data

Results flagged for a closer look

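The 36 genes checked were the 15 higher and 15 lower genes of largest difference, Rassf1, Sav1, Tbk1 and the tested beta tubulins. Clock was not checked. Among the 36 genes, 3 of 72 groups of 4 arrays had 1 array far from the rest by Dixon's criterion at the 95% level. By chance alone about 1 in 20 would. Gask1a was at 7.67 in wild-type replicate 2, with the other 3 wild-type arrays between 7.12 and 7.18. Mrnip was at 7.83 in wild-type replicate 4, with the others between 8.43 and 8.50. Noct was at 10.4 in wild-type replicate 3, with the others between 9.84 and 9.92. In each case the array was a wild-type one. It lay on its genotype's side of all Rassf1a-/- arrays by selection, since these genes were chosen for having no overlap.

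A signal that is no readout of the study also stood out: the mean of the Y-linked genes was 9.18 in Rassf1a-/- replicate 2 and between 2.09 and 3.85 in the wild-type arrays. Xist, which was high in the other arrays of the comparison, read 3.87 in that replicate.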

How the results depend on the processing

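There were 27 alternatives, 11 of processing and 16 with 1 array left out. Of the 92 genes called between Rassf1a-/- and wild-type livers, 39 stayed called in each alternative that tested them. None changed direction where tested. Leaving out 1 array cannot change the direction of a probe set whose genotypes do not overlap, so those 16 alternatives are no test of direction. Only 87 of the 92 passed the 60th percentile filter, and Asap2 and Tmie are among the 39 and not among those 87. Like Arntl and Gask1a, also of the 39, they were tested only through the livers without Rassf1a. The number of calls was 190 with only the compared genotypes fitted, 898 with array weights, 146 with the Y-linked covariate, 59 once the 5 arrays with high Y-linked signal were left out (43 of the 92 among them) and 54 to 128 with 1 array left out. It stayed within 1.5 times 92 with no filter, with a stricter filter, with other probe set rules, with a trended and robust variance and with both scalings. For the comparison on livers with 1 Sav1 allele lost, 110 became 53 with no filter, 185 with the 60th percentile filter, 52 with every probe set as a row, 1 with only the compared genotypes, 173 with a trended and robust variance, 55 with array weights, 50 with median centring, 173 with the Y-linked covariate, 0 with those 5 arrays left out and 27 to 478 with 1 array left out. The difference between the 2 comparisons gave 0 calls except for 1 without Rassf1a-/- Sav1+/- replicate 3, and could not be fitted on the compared genotypes alone. Tbk1 changed sign once, to -0.0047 without wild-type replicate 2, in a range up to 0.153 with 1 array left out. The cause of these shifts was not tested. Nr1i3, Nr1i2, Bhlhe40 and Gnat1 were called under some alternatives, array weights among them. Median centring moved the median of all genes from -0.01 to 0.05.

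No paired analysis was possible because replicate numbers are absent from the labels. The limits are 4 arrays a genotype, unlabelled sex and hour of collection, 1 array of high Y-linked signal among the Rassf1a-/- livers, and dim signals, since the third of genes with the lowest mean signal gave 0.182% called against 1.09% in the highest.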

Other observations

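Other liver programmes gave no call between Rassf1a-/- and wild-type livers, and their medians are given as values, beside -0.01 for all genes. Of all genes, 48.3% were above 0. Of 25 genes of fatty acid oxidation and targets of the receptor Ppar alpha, 19 were below 0, with a median of -0.15, and of -0.08 without Rassf1a-/- replicate 2. Ppara itself was at -0.58 (adjusted p 0.198), Cpt1a, which lets fatty acids into mitochondria, at -0.62 (0.277), and Pdk4, which holds back pyruvate oxidation, at 0.90 (0.220). The 20 genes of cholesterol synthesis had a median of 0.11, which was 0.25 without Rassf1a-/- replicate 2 and 0.20 without wild-type replicate 2. The 16 of gluconeogenesis and glycolysis had one of -0.05, which turned to 0.01 with arrays centred on their medians and to 0.02 without Rassf1a-/- replicate 2, and the 14 of xenobiotic metabolism one of -0.21. Of 25 cytosolic ribosomal proteins 23 were above 0, with a median of 0.18, and Rpl4 was the nearest to the threshold at 0.53 (0.125). The 29 autophagy genes had a median of 0.10, or 0.04 without wild-type replicate 2, and Atg13, of the initiating kinase complex, was at 0.81 (0.233).

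Stress and growth signals were also without a call. The 14 immediate early genes had a median of -0.31, or -0.19 without Rassf1a-/- replicate 2, with 10 below 0, and Jun, at -0.66 (adjusted p 0.232), and Junb, at -0.69 (0.367), had ranges that overlapped between the genotypes. Of 16 heat shock chaperones the median was 0.05, with Hspb1 at 0.92 (0.178) and Rbm3, a cold-inducible protein, at -0.74 (0.177). The 11 targets of Nrf2 had a median of 0.07, the 9 targets of p53 one of 0.03 and the 24 genes of the insulin, growth hormone and insulin-like growth factor axis one of 0.03, which turned to -0.0077 with quantile normalization and to -0.0051 without wild-type replicate 2. Without Rassf1a-/- replicate 2 these 3 were 0.14, 0.02 and 0.15. Near 0 too were the medians of lists with a single call, at 0.07 for glycogen, -0.10 for phosphatidylcholine synthesis, -0.01 for fatty acid synthesis, -0.01 for haem, 0.01 for NAD synthesis, -0.05 for metals, -0.08 for hypoxia-induced genes and 0.07 for mitochondrial proteolysis. Without Rassf1a-/- replicate 2 those for fatty acid synthesis, NAD synthesis, hypoxia-induced genes and mitochondrial proteolysis were 0.07, 0.01, -0.03 and 0.12, and without wild-type replicate 2 that for glycogen was 0.03. The signs of these medians are not stable: those for haem, metals and fatty acid synthesis turned positive with arrays centred on their medians, and that for NAD synthesis turned to -0.02 with quantile normalization. Of the uncalled genes named here, all but Cpt1a and Junb were called under at least 1 alternative, array weights in each case.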
